A study of Canis lupus familiaris with 2 samples.

Results

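Cytosolic ribosomal protein genes encode the proteins that, together with the ribosomal RNAs, build the large (60S) and small (40S) subunits of the ribosome. They were taken from the files by gene symbol, as symbols beginning with RPL or RPS followed directly by a digit, plus RPSA, RPLP0, RPLP1 and RPLP2, leaving out the RPS6K kinases and symbols that end in L and a digit. This gave 76 of the 23510 features listed, 43 with a large subunit symbol and 33 with a small subunit symbol. MDCK cells, a long-established epithelial line from dog kidney whose cells are columnar, had been plated on culture inserts in EMEM with 10% serum and kept for 3 days under medium that stood 2 cm or 50 cm high (the 2-cm and the 50-cm culture). The height sets a static water pressure of 2 or 50 cm H2O, and the labels call the former culture the one with no pressure. No drug, transgene or genetic change was named for either culture, and each height had 1 RNA sample. Without replicates no difference could be set against replicate error, no test was run, and medium height cannot be told apart from anything else that differed between the 2 cultures or libraries.

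Ribosomal proteins are made in the cytoplasm, and most are imported into the nucleolus and fitted onto the ribosomal RNAs there. Each mature subunit holds nearly all of its proteins in equal number. Their messenger RNAs are short, abundant and long-lived, and begin with a run of pyrimidines, the terminal oligopyrimidine or TOP element, through which growth signals mediated by mTOR govern how well they are translated. Their transcript level therefore reports the amount of template and not the rate at which ribosomal proteins were made. Epithelial cells in culture spend much of their transcript pool on them.

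The values are FPKM, fragments on a gene divided by its exon length and by the size of the library. They are per length, so levels can be compared between genes only roughly. How well the length correction held for short transcripts was not tested. Total read numbers are not given. Among 574 features that both cultures had at less than 0.1 FPKM but not at 0, steps in the ratios showed only that 1 read weighed 1.0977 times as much in the 50-cm culture. The labelled cell type was checked by a few markers. The epithelial genes CDH1, EPCAM, KRT8 and KRT18 lay between 211 and 1641 FPKM, and the renal genes PAX2 and PAX8 between 27.9 and 65.1 FPKM. PTPRC of leucocytes and PECAM1 of endothelium were listed at 0 in both cultures, and CDH5, COL1A1 and PDGFRB stayed under 0.2 FPKM.

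Of 77 standard ribosomal protein genes written down by hand from their usual symbols, 73 were found in the files, 42 of 46 for the large subunit and all 31 for the small subunit. RPL23A, RPL36A, RPL38 and RPL41 were not listed under those symbols and were not analysed here. The rule also brought in 3 symbols that are not standard subunit proteins. RPL3L is a relative of RPL3 found mainly in striated muscle, RPS27L is a relative of RPS27, and RPS19BP1 encodes a protein that binds RPS19 and is not itself a part of the mature ribosome. With an FPKM value above 1 required in both cultures, 75 of the 76 genes could be compared, 42 of the large and 33 of the small subunit. The gene that did not pass was RPL3L.

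Ribosomal protein transcripts made up a large share of the FPKM total in both cultures. Summed over the 76 genes, FPKM came to 105835 in the 2-cm culture and 109374 in the 50-cm culture, which is 17.6% and 17.8% of the sum over all features. Large subunit genes held 9.32% and 9.41%, and small subunit genes 8.302% and 8.398%. The difference of 0.186 percentage points in the share of the whole set rested on other abundant features. Without SPP1, the osteopontin gene, which had 12470 and 8135 FPKM, it was 0.0512 points, and without the 10 highest features outside the set it turned to -0.0466 points. Of the 100 features with the highest FPKM, 61 were ribosomal protein genes in the 2-cm culture and 60 in the 50-cm culture, and of the 200 highest, 70 were in either culture. RPLP1 ranked 4 among all features in both cultures, and RPS21 ranked 7 in both.

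**Figure D1:**
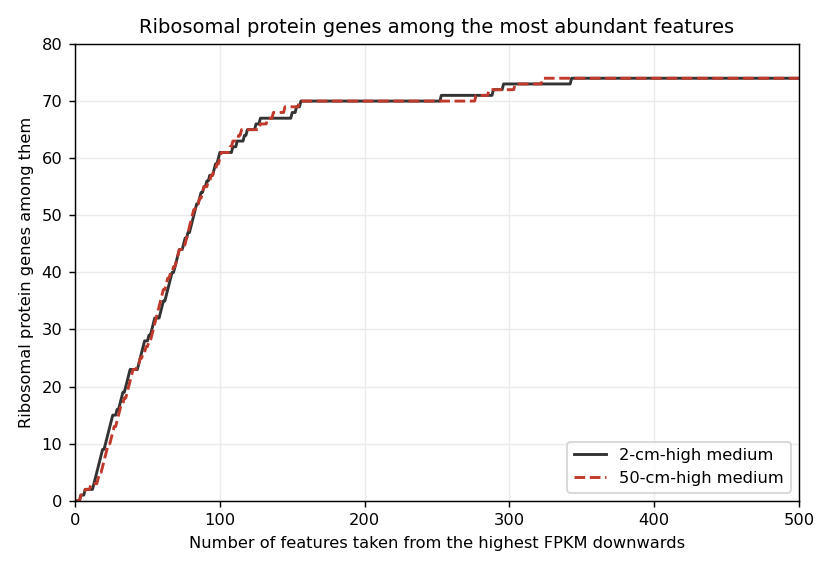
Number of ribosomal protein genes (vertical axis) among the features with the highest FPKM, counted from the highest downwards to 500 (horizontal axis), for the 2-cm culture (solid line) and the 50-cm culture (dashed line). The lines nearly coincide, and both reach 70 genes within the first 200 features and 74 within the first 500.

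Levels differed far more between the genes than between the cultures. Among the 73 standard genes, the median FPKM was 1335 in the 2-cm culture and 1404 in the 50-cm culture, and 55 genes lay between 1000 and 2500 FPKM in the 2-cm culture. The highest gene exceeded the lowest 22.4-fold in the 2-cm culture and 19.6-fold in the 50-cm culture, although the ribosome holds nearly all of these proteins in equal number. RPLP1, which encodes an acidic protein of the stalk that recruits translation factors, was the highest at 5396 FPKM in the 2-cm culture and 5188 FPKM in the 50-cm culture. RPS21 stood next at 4128 and 4219 FPKM, and no other gene passed 2500 FPKM. In the large subunit RPL32 (2393 and 2495 FPKM), RPL23 (2233 and 2231 FPKM) and RPL27A (2106 and 2135 FPKM) followed RPLP1. In the small subunit, RPS27A (2137 and 2146 FPKM), made as a fusion with ubiquitin, and RPS20 (1989 and 2129 FPKM) were among the genes that followed RPS21.

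At the other end, 16 standard genes were below 1000 FPKM in the 2-cm culture. The lowest, named here after their values had been seen, were RPL15 at 240 and 265 FPKM, RPL39 at 274 and 280 FPKM and RPL34 at 282 and 296 FPKM. Another feature, listed by a locus number, carries the name RPL34 in RefSeq, so the level under that symbol is not the only signal of that name. RPL39 encodes a very short protein that lines the exit tunnel for the growing chain. All 3 belong to the large subunit, whose standard genes averaged 1333 FPKM in the 2-cm culture and 1376 FPKM in the 50-cm culture. Those of the small subunit averaged 1595 and 1650 FPKM, so that the large subunit mean was 0.836 times the small subunit mean in the 2-cm culture and 0.834 times in the 50-cm culture. Ribosomal protein genes have many near-identical processed copies in mammalian genomes, and how reads that match several places were counted is not given in the sources used here. The level of any single gene, above all of a low one, is uncertain to that extent. The untested length correction of short transcripts further limits the comparison of levels between genes.

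**Figure D2:**
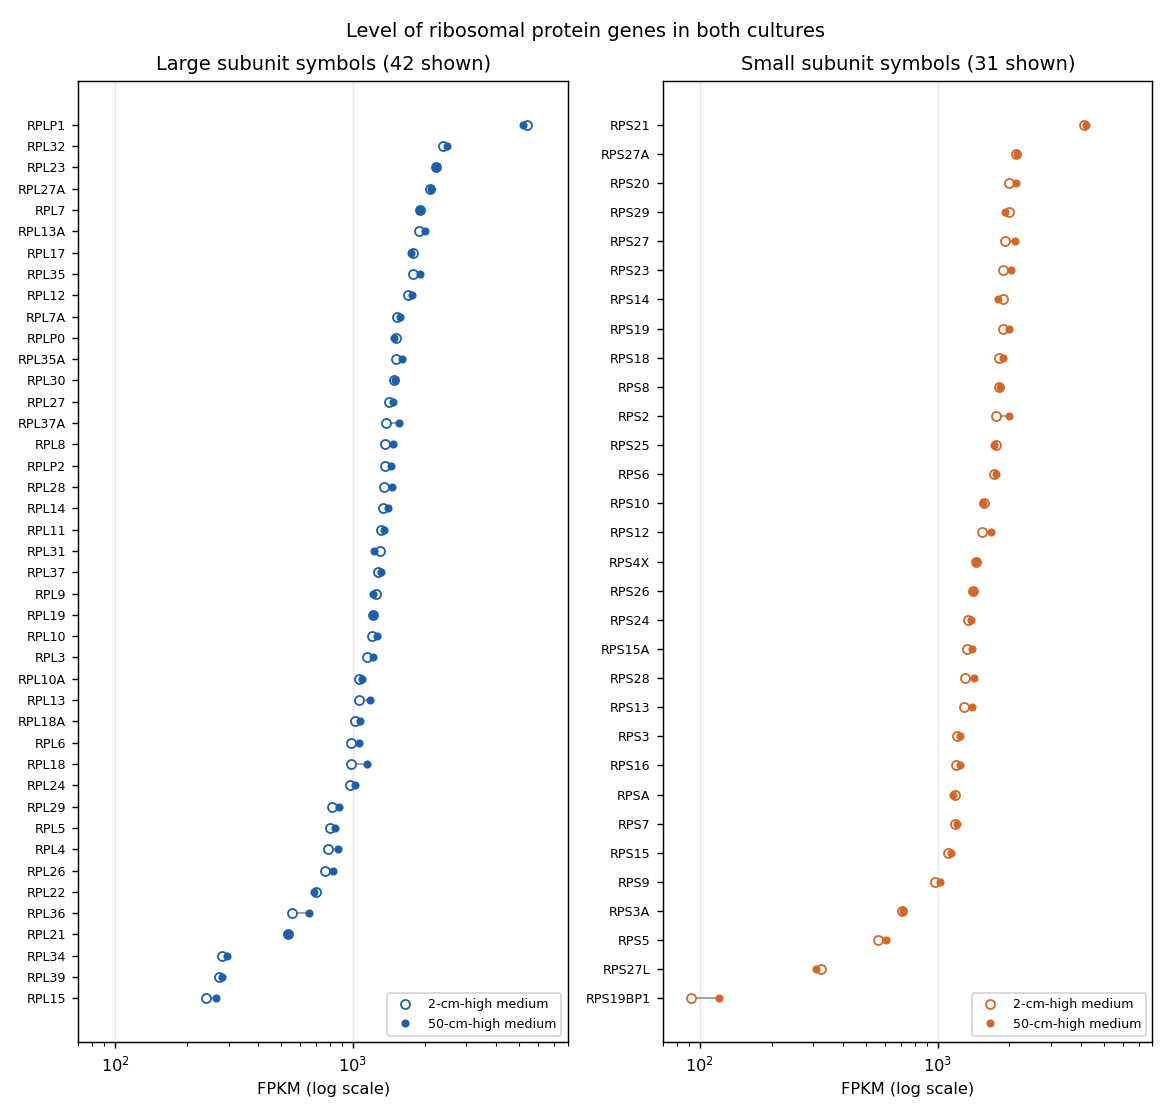
FPKM on a log scale (horizontal axis) of 42 large subunit symbols (left) and 31 of the 33 small subunit symbols (right) above 1 FPKM in both cultures, ordered by their value in the 2-cm culture. Open circles show the 2-cm culture and filled circles the 50-cm culture (1 culture each, no error bars). The circles of a gene lie close together, whereas the genes span from 91.4 FPKM for RPS19BP1 to 5396 FPKM for RPLP1 in the 2-cm culture.

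The order of the genes was nearly the same in both cultures. Across the 73 standard genes, log2 FPKM in the 2-cm culture and in the 50-cm culture had a Pearson r of 0.996 and a Spearman rho of 0.990. These coefficients describe genes measured in the same 2 libraries, which share gene lengths and mapping, and carry no test. Neighbours in the order cannot be called different, because no spread between cultures is known. The log2 ratio had a weak relation to the level, with a Pearson r of -0.236 and a Spearman rho of -0.203 over the same 73 genes, again as a description only.

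The main comparison asked how ribosomal protein transcripts differed between the 50-cm and the 2-cm culture. The ratio of 50-cm over 2-cm FPKM was above 1 for 58 of 75 genes, against 52.6% of all 11057 features above 1 FPKM in both cultures, and below 1 for 17 genes, against 47.4%. The median ratio was 1.04, with quartiles of 1.01 and 1.07. Over all features the median ratio was 1.01, with quartiles of 0.891 and 1.12. None of the 75 genes was more than 2-fold higher (0.389% of all features) or more than 2-fold lower (1.28%). A limit of 1.2-fold was passed upward by 1 gene, RPS19BP1 (15% of all features), and downward by none (16.9%). Once the deposited values were quantile normalized, the direction turned, with 30 of 75 genes above 1 and a median ratio of 0.992, while the 1.2-fold count stayed at 1. Over all features, 51.5% were then above 1.

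All 75 genes were in the top 10% of features by mean log2 FPKM. The 1031 other features of that top 10% had a median ratio of 1.05, and 66.9% of them were above 1 (52.5% after quantile normalization, 541 of 1031). Of the ribosomal protein genes, 77.3% were above 1, and their median of 1.04 was near that of these other features. After quantile normalization the shares changed order, with 40% of the ribosomal protein genes above 1. Their median was then 0.992, against 1.01 for the other features of the top 10%. The spread differed more. The SD of the log2 ratio across genes was 0.0659 over the 73 standard genes, 0.246 over the other features of the top 10% and 0.333 over all features. Over all 75 genes of the rule, RPS19BP1 and RPS27L included, it was 0.0779. A change of less than 1.1-fold in either direction was seen for 65 of the 73 standard genes (89.0%), for 51.4% of the other features of the top 10% and for 42.6% of all features. With 1 culture per height the difference in spread was not tested. Levels also differed between these sets, with a median of 1335 FPKM for the standard genes and 152 FPKM for the other features of the top 10% in the 2-cm culture, and the part of level in the spread was not tested.

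**Figure D3:**
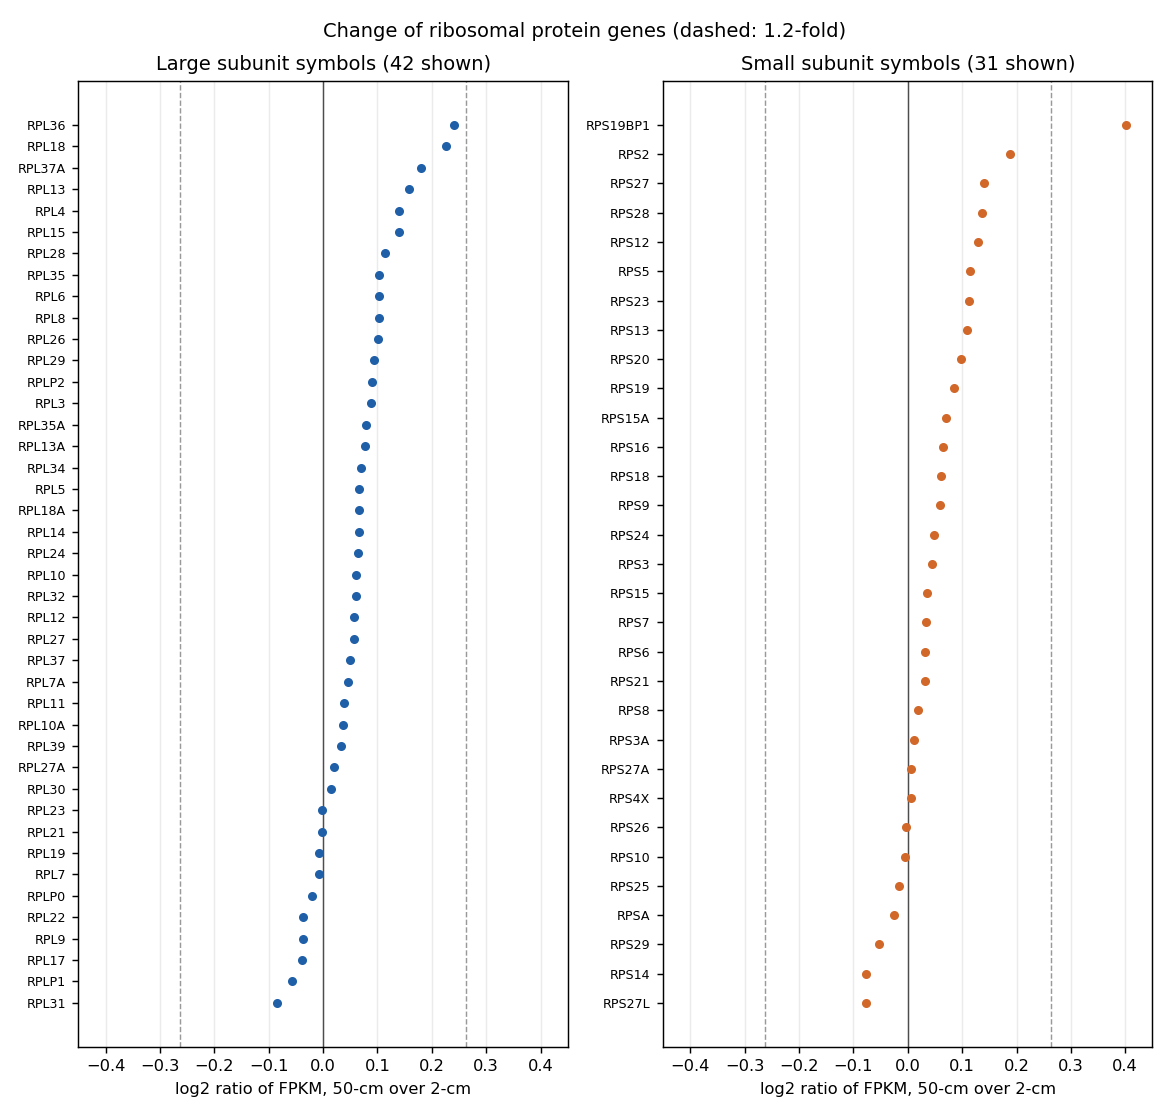
Log2 ratio of 50-cm over 2-cm FPKM (horizontal axis) for genes above 1 FPKM in both cultures, with 42 large subunit symbols on the left and 31 of the 33 small subunit symbols on the right, ordered by ratio. The solid line marks 0 and the dashed lines 1.2-fold in either direction; of the genes drawn, RPS19BP1 alone lies outside them. Over all 75 genes compared, 58 had a ratio above 1 (30 after quantile normalization), against 52.6% (51.5%) of all features.

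The large subunit genes had ratios from 0.943 to 1.18, with a median of 1.04. Of the 42 genes, 32 were above 1 (20 after quantile normalization), against 52.6% (51.5%) of all features. RPL36 had the largest ratio, from 553 to 654 FPKM (1.18-fold), and RPL18 came next, from 979 to 1146 FPKM (1.17-fold). RPL37A went from 1380 to 1563 FPKM (1.13-fold) and RPL13 from 1059 to 1182 FPKM (1.12-fold). None of these passed the limit of 1.2-fold. The smallest ratio was that of RPL31, which lies near the end of the exit tunnel, at 1300 and 1226 FPKM (0.943). RPLP1 (0.961), RPL17 (0.973), at 1792 and 1744 FPKM, and RPL9 (0.974), at 1250 and 1217 FPKM, were next. RPL31, RPL17 and RPL9 kept a ratio below 1 under every scaling tried, whereas quantile normalization set RPLP1, which has the same rank in both cultures, to a ratio of 1.

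The 3 stalk genes did not share a direction. RPLP1 and RPLP0, the latter anchoring the stalk to the ribosomal RNA, had lower values in the 50-cm culture, RPLP0 at 1514 and 1493 FPKM (0.986). RPLP2, which pairs with RPLP1 on the stalk, had 1362 and 1449 FPKM (1.06). RPL5 and RPL11 bind the 5S ribosomal RNA and, when not built into ribosomes, hold back MDM2 and so stabilize p53. RPL5 had 803 and 841 FPKM (1.05) and RPL11 1308 and 1343 FPKM (1.03), and both ratios fell below 1 after quantile normalization.

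The small subunit genes had ratios from 0.948 to 1.32, with a median of 1.03. Of the 33 genes, 26 were above 1 (10 after quantile normalization), against 52.6% (51.5%) of all features. RPS19BP1 went from 91.4 to 121 FPKM (1.32-fold), and it is the member with the lowest level among those compared. Among the 31 standard genes the largest ratio was that of RPS2, which borders the channel where messenger RNA enters, from 1756 to 2000 FPKM (1.14-fold). RPS27 went from 1917 to 2113 FPKM (1.102-fold) and RPS28 from 1298 to 1427 FPKM (1.099-fold). RPS27L, the relative of RPS27 that p53 is known to induce, had the smallest ratio, at 324 and 307 FPKM (0.948). RPS14, a gene of the human 5q region whose loss of a copy impairs red cell formation, had 1888 and 1791 FPKM (0.948), RPS29 had 1987 and 1916 FPKM (0.964), and RPSA, also known as a laminin receptor, had 1180 and 1159 FPKM (0.982). RPS6, the substrate of the S6 kinases and added to the named genes after its values had been seen, had 1727 and 1767 FPKM (1.02).

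The median log2 ratio of the large subunit symbols exceeded that of the small subunit symbols by 0.018. With 1 culture per height this difference was not tested. After quantile normalization, 20 of 42 large and 10 of 33 small subunit symbols had a ratio above 1, against 32 and 26 as deposited. The share of all features above 1 was 51.5% after quantile normalization and 52.6% as deposited. Summed FPKM was 1.033 times as high in the 50-cm culture for large subunit genes and 1.034 times for small subunit genes, against 1.023 times for all features. Without RPS19BP1 and RPS27L, 25 of 31 standard small subunit genes had a ratio above 1 and the median stayed at 1.03.

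RPL3L was the member at the floor of detection, with 0.141 FPKM in the 2-cm culture and 0.0514 FPKM in the 50-cm culture. The ratio of these values was within 0.05% of that given by 1 read in the 50-cm culture and 3 reads in the 2-cm culture, or by the same multiple of both. No change is read from it. RPL3, its counterpart outside muscle, had 1140 and 1212 FPKM.

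The standard genes were also grouped by properties that the symbols do not show, and no difference between these groups was tested. Proteins that bacteria, archaea and eukaryotes share accounted for 32 of the 73 standard genes, of which 24 were above 1 with a median ratio of 1.04. Of the 41 others, 33 were above 1, with a median of 1.03. Genes mutated in Diamond-Blackfan anaemia, a failure of red cell production caused by too little of a ribosomal protein, numbered 19, with 15 above 1 and a median of 1.05. The other 54 had 42 above 1 and a median of 1.04. For all of these groups the median fell just under 1 after quantile normalization, between 0.990 and 0.996. The numbers above 1 then fell to 14, 15, 7 and 22, in the order given. Over all features, 52.6% had a ratio above 1 as deposited and 51.5% after quantile normalization. Of the 73 standard genes found in the files, RPL10, RPS4X and RPL39 lie on the X chromosome of mammals, with ratios of 1.043, 1.005 and 1.023.

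Some ribosomal components carry other symbols and stood outside the rule. FAU encodes a ubiquitin-like protein fused to eS30 and had 1063 and 1105 FPKM (1.04), and GNB2L1, the older symbol of the small subunit scaffold RACK1, had 1280 and 1302 FPKM (1.02). Both thus lay within the range of the members in level and in ratio. The paralogs removed by the rule had less even ratios, at levels in the 2-cm culture below that of every member compared. In the 50-cm culture RPL22L1 was above the member RPS19BP1, which had 121 FPKM there. RPL22L1 went from 79.7 to 128 FPKM (1.601-fold), while RPL22, of which it is a relative, had 700 and 683 FPKM (0.975). RPL7L1 went from 48.9 to 62.5 FPKM (1.28-fold), compared with 1918 and 1907 FPKM (0.994) for RPL7. RPL26L1 had 21.0 and 23.1 FPKM (1.104), and RPL26 had 766 and 822 FPKM (1.07). RPL22L1 and RPL7L1 were past 1.2-fold under every scaling tried, and 15% of all features were more than 1.2-fold higher as deposited. Their difference from RPL22 and RPL7, and the part of their low level in it, were not tested.

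The proteins of the mitochondrial ribosome, a separate particle that translates the few messages of mitochondrial DNA, were the most similar set by function. All 74 of their genes in the files were above 1 FPKM in both cultures. Of these, 63 had a ratio above 1 (53 after quantile normalization), against 52.6% (51.5%) of all features. The median of the 74 was 1.09 (1.05). More than 1.2-fold higher were 11 (9 after quantile normalization), against 15% of all features, and 2 were more than 1.2-fold lower under either scaling, against 16.9%. Ratios ran from 0.827 in MRPL48, at 15.74 and 13.01 FPKM, to 1.51 in MRPL34, at 31.7 and 47.8 FPKM. Their median level was 56.5 FPKM in the 2-cm culture, far below the 1335 FPKM of the cytosolic set, and the SD of the log2 ratio across genes was 0.150. Level and spread thus both differed from those of the cytosolic set, and the part of level in the spread was not tested. The initiation factors described next had a median of 142 FPKM in the 2-cm culture and an SD of 0.163.

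Translation initiation factors bring the subunits, the initiator tRNA and the messenger RNA together. All 34 listed genes in the files were compared. A ratio above 1 was seen for 30 (28 after quantile normalization), against 52.6% (51.5%) of all features. The median of the 34 was 1.13 (1.08). More than 1.2-fold higher were 13 of them (8 after quantile normalization), against 15% of all features, and none was more than 1.2-fold lower, against 16.9%. EIF1, which guards the choice of start codon, went from 261 to 367 FPKM (1.41-fold), and EIF4A1, the helicase that unwinds leader sequences, from 809 to 1138 FPKM (1.41-fold). EIF3B went from 97.7 to 135 FPKM (1.38-fold), EIF2B1 from 53.0 to 71.5 FPKM (1.35-fold) and EIF3J from 40.4 to 53.1 FPKM (1.32-fold). The other 8 past the limit were EIF2S1, EIF2B4, EIF2B2, EIF4G1, EIF6, EIF5, EIF5B and EIF3A, with ratios of 1.202 to 1.282. EIF6 keeps the large subunit from joining too early. EIF3E had the smallest ratio of the list, at 193 and 179 FPKM (0.929), and its transcript is itself of the TOP class. Against the cytosolic ribosomal protein genes, 13 of 34 initiation factors but 1 of 75 members passed 1.2-fold upward, a contrast that was not tested and that goes with a median initiation factor level of 142 FPKM.

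Elongation factor genes had uneven ratios. EEF1A1, which delivers aminoacyl-tRNA to the ribosome, had 1496 and 1510 FPKM (1.01), and its partners EEF1G (962 and 968 FPKM, 1.01) and EEF1B2 (654 and 653 FPKM, 0.998) also stayed near 1. EEF2, which moves the ribosome along by a codon, had 794 and 898 FPKM (1.13). EIF5A, which relieves stalls at proline runs, went from 455 to 627 FPKM (1.38-fold), and EEF1E1, a scaffold of the tRNA synthetase complex, from 31.4 to 39.8 FPKM (1.27-fold). Of the 7 genes of this list in the files, EEF1E1 included, 6 had a ratio above 1 (4 under each of the 3 rescalings). Over all features, 52.6% had a ratio above 1 as deposited. The median of the list was 1.05, and 1.08 after quantile normalization. More than 1.2-fold higher were 2 of the 7, against 15% of all features.

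Other transcripts that begin with a TOP element came closest to the members in their median. The 17 such genes compared included several of the factors above, FAU and GNB2L1. Of the 17, 13 had a ratio above 1 (8 after quantile normalization), against 52.6% (51.5%) of all features. The median of the 17 was 1.04. As deposited, 2 genes passed 1.2-fold upward, against 15% of all features, and 1 did after quantile normalization. The genes as deposited were VIM, which encodes the intermediate filament protein vimentin, from 1802 to 2380 FPKM (1.32-fold), and NPM1, a nucleolar chaperone of ribosome assembly, from 1306 to 1615 FPKM (1.24-fold). TPT1, a classical TOP transcript, had 1383 and 1364 FPKM (0.986).

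**Figure D4:**
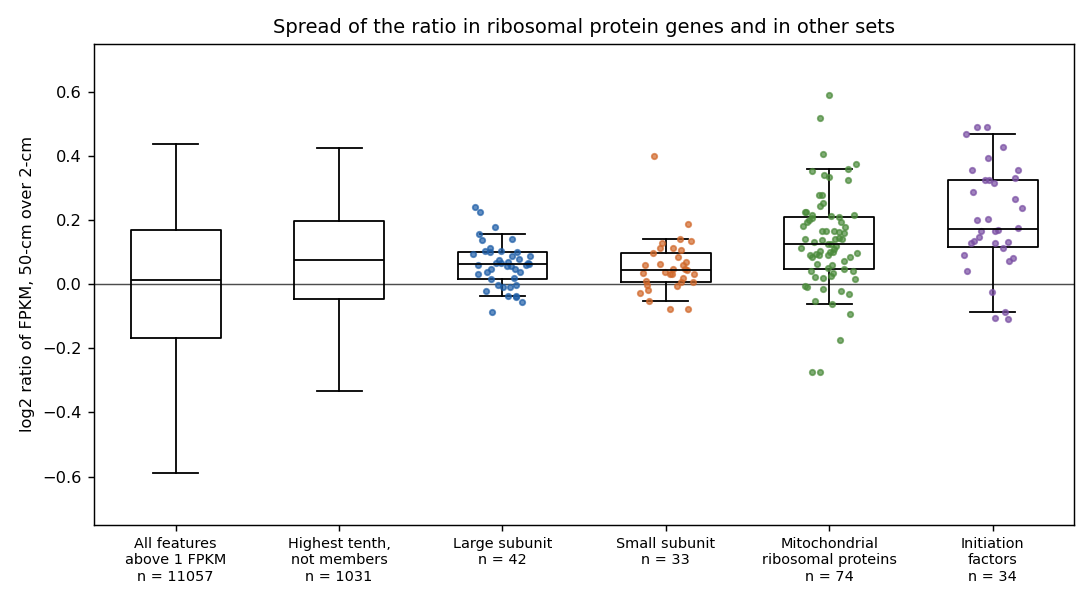
Log2 ratio of 50-cm over 2-cm FPKM (vertical axis) in all features above 1 FPKM in both cultures, the other features of the top 10%, the large and small subunit symbols, mitochondrial ribosomal protein genes and initiation factors. Boxes span the quartiles with the median as a line, whiskers run from the 5th to the 95th percentile, points are single genes, and the boxes of the cytosolic ribosomal protein genes are the narrowest, with median ratios of 1.04 and 1.03 against 1.09 and 1.13 in the mitochondrial genes and initiation factors, all as deposited and before quantile normalization.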

How the data were processed

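RNA of MDCK cells from 1 culture in 2-cm-high and 1 in 50-cm-high medium was sequenced. The authors made stranded mRNA libraries, mapped single-end reads to CanFam3.1 with TopHat2 2.0.13, Bowtie2 2.2.3 and SAMtools 0.1.19, and deposited FPKM values per gene from Cuffnorm 2.2.1, whose scaling method and gene annotation are not given in the sources used here. Depth is unknown, so no interval was computed. Ratios of 50-cm over 2-cm FPKM were taken without a pseudocount for the 11057 features above 1 FPKM in both cultures. The study's 2-fold limit was used, with a 1.2-fold limit added.

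The genes and lists were chosen with earlier results of these data known. Named are, per subunit, the 4 highest genes, the 4 largest and 4 smallest ratios, and members past 1.2-fold or at most 1 FPKM, stalk and 5S genes, paralogs, and, of other lists, all of the fusion, receptor and paralog list and those past 1.2-fold with the extremes. Some genes of this rule are not reported here by name, though they stay in the counts and medians. Genes named beyond this rule were chosen after their values were seen. Of the 76 symbols, 75 matched the RefSeq table, which held names but no sequences. An alternative value with no test was taken as moved when it changed over 1.5 times. Scripts were tested on simulated data. Python 3.11.15, numpy 2.4.6, pandas 2.3.3, scipy 1.17.1 and matplotlib 3.10.9 were used.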

Additional observations from a re-analysis of the deposited data

How the results depend on the processing

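Quantile normalization changed the direction of the set. It gave a median log2 ratio of -0.0110 for all members, 0 for the large and -0.0208 for the small subunit. A ratio above 1 was then seen for 30 members, 20 of the large and 10 of the small subunit, against 51.5% of all features. Scaling each culture to the summed FPKM of non-members kept the direction and lowered the medians to 0.0283, 0.0333 and 0.0149. Accepting any value above 0 added RPL3L, so that 2 members (1 of the large subunit) passed 1.2-fold and 1, of the large subunit, passed 2-fold. With standard genes only, none passed 1.2-fold in the set or in the small subunit. The difference of 0.186 percentage points in the FPKM share was 0.0512 without SPP1, chosen after seeing the data, and -0.0466 without the 10 highest other features. The remaining comparisons, under pseudocounts of 0.1 and 1, FPKM minima of 5 in both or 1 in either culture, and recentring on the median of all features, stayed within 1.5 times and kept their direction. Single genes near a ratio of 1 can change side with such scalings. No paired analysis was possible because each medium height has 1 culture. Unknown read numbers limit RPL3L, and reads shared with near-identical copies may limit any member.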

Other observations

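Some features listed by a locus number carry the name of a ribosomal protein in the RefSeq table of a later dog assembly. LOC102152573 is named RPL34 there and had 502 FPKM in the 2-cm culture and 484 FPKM in the 50-cm culture (ratio 0.965), beside 282 and 296 FPKM for the feature listed as RPL34. The signal under this name was thus split over a pair of features, and how reads were divided between both features was not tested. LOC480311 is named RPL36AL, with Rpl36a among its older names, and had 331 and 354 FPKM (ratio 1.07). LOC490672 is named RPL10L and was listed at 0 in both cultures. Of 6440 features with a locus number, 3740 had an entry in the table.

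A further set of 12 held regulators of TOP transcripts together with MYC, all above 1 FPKM in both cultures. Of these, 10 had a ratio above 1 (9 after quantile normalization). MYC was among the 4 that were more than 1.2-fold higher in the 50-cm culture. Of all features, 52.6% had a ratio above 1 and 15% were more than 1.2-fold higher. MYC, a transcription factor that promotes ribosome production, went from 57.7 to 88.0 FPKM (1.53-fold). LARP4 went from 14.6 to 20.9 FPKM (1.43-fold), CNBP from 166 to 215 FPKM (1.29-fold) and LARP1, which binds TOP elements and the cap, from 41.6 to 50.9 FPKM (1.22-fold). TIA1 had the smallest ratio, at 20.6 and 18.0 FPKM (0.874). The number past 1.2-fold was 4 under every scaling tried, and with 1 culture per height no test was possible.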
